A study of Homo sapiens with 16 samples.

Results

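The genes described here encode the enzymes that build fatty acids from citrate, lengthen them and place double bonds in them: ACLY, ACSS2, ACACA, FASN, ME1, SCD, ELOVL1, ELOVL6, FADS1 and FADS2. They are 10 of the 18190 gene symbols on the array, matched by symbol but chosen with earlier results of these data known. Of the 20589 rows of the table, 12 carry one of these symbols. Each gene is given by its detected probe with the highest mean signal. The detection p sets a probe against the negative controls of its own array, and a probe was tested if this p was below 0.05 for at least 3 arrays. This held for 11 of the 12 rows and for all 10 genes, and 12321 probes were tested in all.

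The cells were MCF10HER2 (MCF-10HER-2 in the labels), derived from MCF10A, a human breast epithelial line that is not transformed, by transduction with HER2, the receptor tyrosine kinase encoded by ERBB2. All cultures grew in serum-free medium with epidermal growth factor, hydrocortisone and thyroid hormone and, per the methods of the study, without insulin. Parallel cultures received CP724,714, an inhibitor of the HER2 kinase, at 1 µM for 3 to 45 h, with RNA taken every 3 h, and the 0 h culture was the only untreated one. Each of the 16 time points had 1 array and no replicate, so p-values rest on the scatter of arrays about a curve in time, and the number of arrays limits the precision. Treatment started with fresh medium, and since no culture without inhibitor was analysed here after 0 h, the inhibitor, the fresh medium and time in culture cannot be told apart.

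Cells make fatty acids from acetyl-CoA in the cytosol. ATP citrate lyase (ACLY) cuts citrate exported from mitochondria into acetyl-CoA and oxaloacetate, acetyl-CoA synthetase (ACSS2) makes acetyl-CoA from acetate, acetyl-CoA carboxylase (ACACA) turns it into malonyl-CoA, and fatty acid synthase (FASN) joins these units into palmitate with NADPH, part of which comes from malic enzyme (ME1). Elongases of the ELOVL family then lengthen the chain and the desaturases SCD, FADS1 and FADS2 insert double bonds, SCD into saturated and the FADS enzymes into polyunsaturated chains. Many of these genes are known targets of the sterol regulatory element binding proteins (SREBPs), transcription factors encoded by SREBF1 and SREBF2 and held back in the endoplasmic reticulum by INSIG proteins.

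Promoter windows of 300 bases, from 250 bases before to 50 after the start of the gene, were taken from RefSeq (GRCh38.p14) for 9 of the 10 genes, with 14 windows in all because some genes have several starts. FASN was not among them. Those of ACLY and SCD are shown for the genes that fell early and stayed low. Those of ELOVL6 and FADS1 are shown for the pair that fell, rose again (ELOVL6 only in part) and fell once more. Capitals mark 2 motifs on either strand. One is the CCAAT box, searched by that word. The other is the GC box, searched as GGGCGG.
ACLY, chr17:41918973-41919272, minus strand: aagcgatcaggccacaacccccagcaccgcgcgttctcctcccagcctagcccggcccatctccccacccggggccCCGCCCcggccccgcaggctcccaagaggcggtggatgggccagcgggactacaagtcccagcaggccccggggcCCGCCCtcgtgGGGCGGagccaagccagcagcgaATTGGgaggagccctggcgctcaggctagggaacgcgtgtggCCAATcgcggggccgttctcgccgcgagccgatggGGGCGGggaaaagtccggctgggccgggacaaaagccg
SCD, chr10:100346983-100347282, plus strand: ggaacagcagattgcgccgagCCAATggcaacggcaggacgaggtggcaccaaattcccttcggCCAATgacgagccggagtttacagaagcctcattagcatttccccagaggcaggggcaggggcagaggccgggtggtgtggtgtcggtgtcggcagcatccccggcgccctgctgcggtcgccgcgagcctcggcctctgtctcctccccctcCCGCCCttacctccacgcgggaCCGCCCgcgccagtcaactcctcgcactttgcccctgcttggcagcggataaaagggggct
ELOVL6, chr4:110198566-110198865, minus strand: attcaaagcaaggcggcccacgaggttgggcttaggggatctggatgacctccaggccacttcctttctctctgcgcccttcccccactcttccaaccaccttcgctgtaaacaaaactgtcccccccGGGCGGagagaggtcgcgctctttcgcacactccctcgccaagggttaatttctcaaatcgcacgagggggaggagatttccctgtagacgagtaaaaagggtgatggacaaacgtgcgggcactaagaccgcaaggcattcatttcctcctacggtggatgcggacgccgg
FADS1, chr11:61816954-61817253, minus strand: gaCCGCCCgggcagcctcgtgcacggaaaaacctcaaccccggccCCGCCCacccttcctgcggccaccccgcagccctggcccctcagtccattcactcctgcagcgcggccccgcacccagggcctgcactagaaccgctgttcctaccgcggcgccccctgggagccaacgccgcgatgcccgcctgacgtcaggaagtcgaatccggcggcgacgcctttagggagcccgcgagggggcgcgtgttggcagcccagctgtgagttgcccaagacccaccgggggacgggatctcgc
The ACLY window held 2 CCAAT box matches, at -65 and -23 from the start, and the SCD window held 2, at -229 and -186. The ELOVL6 and FADS1 windows held none, and each of the 4 windows held at least 1 GC box. The windows not shown did not divide by course in this way. That of ME1, which fell, held no CCAAT box, and that of ELOVL1, which did not fall, held 1, at -65. The 2 windows of ACLY overlap and hold the same CCAAT boxes, and both are counted below. A CCAAT box match was found in 8 of the 14 windows against 34.6% of all 35116 promoter windows of this length, and a GC box match in 12 of 14 against 45%. The core of a sterol regulatory element, searched on both strands as TCACNCCAC (1.13% of all windows), and the E-box CACGTG (7.26%) were in none of the 14, which says only that these letters are not in these windows. In the 4 windows shown no match overlapped another.

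Some facts of the series bear on every value. The background, the median signal of probes at the level of the negative controls, was 135.7 to 148.7 for the first 8 time points (0 to 21 h) and 164.3 to 173.5 for the last 8 (24 to 45 h). The 9 h and 18 h arrays were dim, with upper quartiles of 397.3 and 418.4 against 553.2 to 803.7 on the others. After normalization the root mean square step from one array to the next, over all tested probes, came to 0.399 to 0.5 log2 units for 3, 6, 9 and 12 h, 0.325 at 36 h and 0.186 to 0.291 at the other time points. The epithelial markers KRT5, KRT17, KRT18 and EPCAM (listed as TACSTD1) were detected on all 16 arrays and KRT14 on fewer than 3. None of the 3 adipocyte markers, 1 of 3 fibroblast markers (DCN), 1 of 3 immune markers (CD14) and 1 of 3 endothelial markers (PECAM1) were detected on all arrays, with mean intensities over these 4 lists of 160.1 to 392.2. Markers moved over the course too. Of 6 tested epithelial markers KRT17 rose by 2.86 ± 0.31 (SE; log2 change over 45 h, limma adjusted p = 3.4e-06) and KRT5 had -0.47 ± 0.12 (adjusted p = 0.0078). CD14 rose by 1.46 ± 0.33 (adjusted p = 0.0033) and DCN by 0.92 ± 0.18 (adjusted p = 0.0011), and PECAM1 had 0.96 ± 0.40 (adjusted p = 0.093) with an early slope of 2.04 (adjusted p = 0.00029). Their part in the results was not tested. Despite the overexpression on the label, the ERBB2 rows were near background. The row named ILMN_28003, detected on 7 arrays, had intensities of 162.72 to 264.73 and ILMN_2680, detected on 1, had 154.8 to 258.47, and whether these probes read the transduced copy was not tested.

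Most of the enzymes were lower after treatment. Of the 10 genes, 7 depended on time in a moderated F-test of a spline with 4 degrees of freedom (limma, Benjamini-Hochberg adjusted p under 0.05), against 42.3% of all tested probes. ACLY, FASN, ME1 and SCD fell over the 45 h in a straight-line fit (background 11.3% lower; with array weights SCD was not called, at -0.32, adjusted p = 0.14). ELOVL1 rose (background 13.1% higher), a call that held in 4 of the 16 fits that left out 1 array. The median linear change of the 10 was -0.66 on the log2 scale, beside 0.0046 over all tested probes. Against the untreated array, the mean of the treated arrays was lower for 7 genes (ACLY, ACACA, FASN, ME1, SCD, ELOVL6 and FADS1; background 9.35%), a test that rests on 1 untreated array assumed to vary like the others. The call on FADS1 (-0.75 ± 0.25, adjusted p = 0.043) was lost without the 33, 39, 42 or 45 h array, with median scaling and with no detection filter. The same 7 passed the 1.7-fold threshold used in the study, set here against 0 h, on the lower side at 1 or more time points (background 22.9%), and no gene passed it on the higher side (24.6%).

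**Figure D1:**
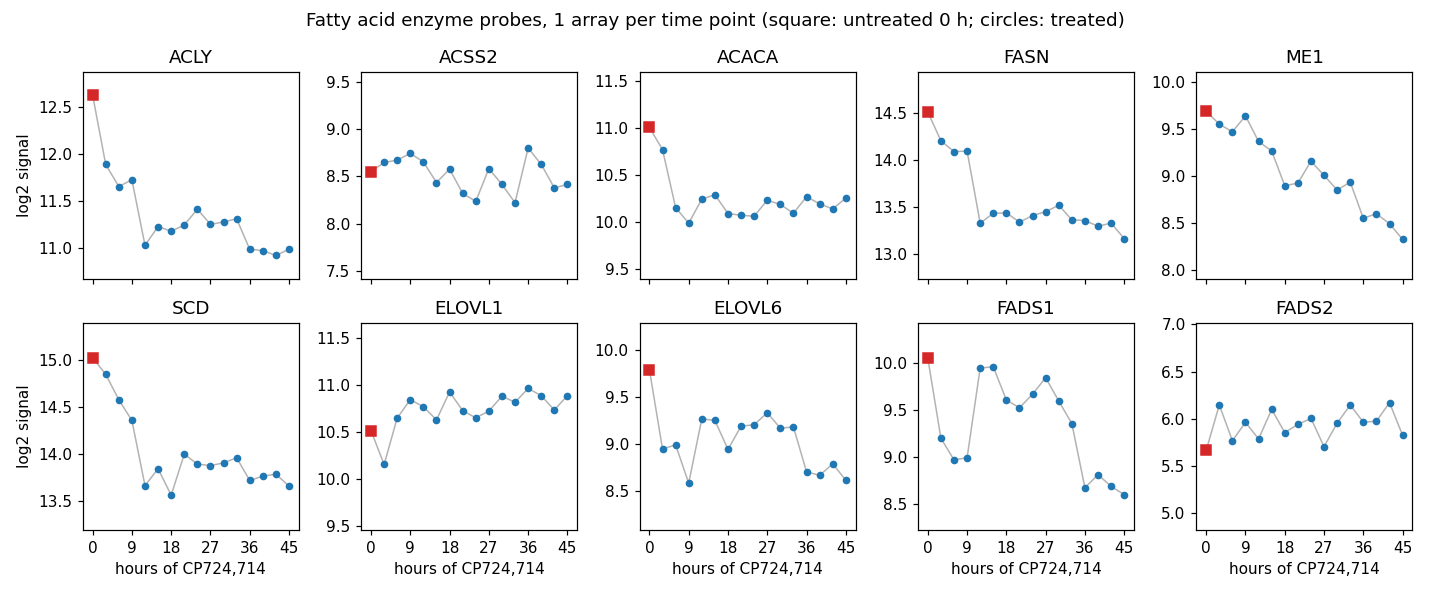
Log2 signal of each of the 10 enzyme genes (vertical axis, 2.2 log2 units in every panel) against hours of CP724,714 (horizontal axis), with 1 array per point, the untreated array as a red square and treated arrays as blue circles. FASN and SCD reached their lower level by 12 h, and ME1 declined to 45 h. ACLY was low by 12 h and a little lower again from 36 h. ELOVL6 and FADS1 dipped at 3 to 9 h, rose at 12 h (ELOVL6 only part of the way back) and were low again from 36 h.

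ACLY, the enzyme that makes cytosolic acetyl-CoA from citrate, had the largest drop between 0 and 45 h. The log2 signal started at 12.63 at 0 h, then read 11.89, 11.66 and 11.73 at 3, 6 and 9 h. From 12 to 33 h it was 11.03, 11.23, 11.18, 11.25, 11.42, 11.25, 11.28 and 11.31, and from 36 to 45 h 10.99, 10.98, 10.92 and 10.99. All 15 treated arrays were below the untreated one, 14 of them by 1.7-fold or more, and the 45 h array was 3.11-fold below. The spline passed (limma adjusted p = 1.5e-05), as did the linear change of -1.07 ± 0.22 (SE, adjusted p = 0.0013). Most of it came early. The slope over 0 to 21 h was -1.27 ± 0.22 (adjusted p = 0.00063) and that over 24 to 45 h, per 21 h, -0.49 ± 0.22 (adjusted p = 0.22), with no call on the difference (0.78 ± 0.31, adjusted p = 0.077).

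FASN, which assembles palmitate, went down in steps. From 14.51 on the log2 scale in the untreated array it went to 14.20, 14.09 and 14.09 at 3 to 9 h and to 13.33 at 12 h. It then read 13.43, 13.44, 13.34, 13.41, 13.45, 13.52 and 13.36 at 15 to 33 h and 13.36, 13.30, 13.33 and 13.16 at 36 to 45 h. The 12 arrays from 12 h on were all 1.7-fold or more below 0 h and none of the 3 before them was. The 45 h array was 2.54-fold below 0 h and the linear change was -1.02 ± 0.18 (limma adjusted p = 0.00046). The slope over 0 to 21 h was -1.23 ± 0.15 (adjusted p = 4.8e-05), the later one -0.25 ± 0.15 (adjusted p = 0.38), and the slopes differed by 0.98 ± 0.21 (adjusted p = 0.0044). The step from 9 to 12 h, -0.76, was exceeded in size by 10.9% of tested probes between those arrays.

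SCD, which makes monounsaturated from saturated fatty acids, followed FASN closely although it acts after palmitate. Log2 signals were 15.03, 14.85, 14.58 and 14.36 at 0 to 9 h, 13.66, 13.84, 13.56 and 14.00 at 12 to 21 h, 13.89, 13.88, 13.91 and 13.96 at 24 to 33 h, and 13.72, 13.77, 13.79 and 13.66 at 36 to 45 h. Every array from 12 h on was 1.7-fold or more below 0 h. The linear change was -1.01 ± 0.22 (limma adjusted p = 0.0027) and the 45 h array was 2.58-fold below 0 h. The slope was -1.38 ± 0.20 over 0 to 21 h (adjusted p = 0.00015) and -0.23 ± 0.20 over 24 to 45 h (adjusted p = 0.57), and the difference passed the test (1.15 ± 0.28, adjusted p = 0.0082). Across the 16 arrays, which share time, Pearson's r was 0.951 for FASN and SCD, 0.936 for ACLY and FASN and 0.929 for ACLY and SCD, as a description. Over 24 to 45 h alone these were 0.767, 0.657 and 0.848. In those later arrays ACLY had an r of 0.913 with FADS1 and 0.905 with ELOVL6, against -0.054 and 0.375 over 0 to 21 h.

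ME1, which yields NADPH as it turns malate into pyruvate, fell unevenly. It changed by only -0.05 on the log2 scale from 0 to 9 h. Its largest steps down were from 15 to 18 h (-0.37) and from 33 to 36 h (-0.38), and it rose by 0.23 from 21 to 24 h. Its log2 signals were 9.69, 9.55, 9.47 and 9.64 at 0 to 9 h, 9.37, 9.27, 8.90 and 8.93 at 12 to 21 h, 9.16, 9.01, 8.85 and 8.94 at 24 to 33 h, and 8.55, 8.60, 8.49 and 8.33 at 36 to 45 h. The linear change, -1.28 ± 0.14 (limma adjusted p = 3.2e-06), was the largest of the 10 in size. The slopes over 0 to 21 h (-0.79 ± 0.17, adjusted p = 0.0024) and over 24 to 45 h (-0.79 ± 0.17, adjusted p = 0.012) both passed. Their difference was -0.0008 ± 0.24 (adjusted p = 0.998). The call on the later slope was lost without the 24 h or the 45 h array.

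ACACA, which makes malonyl-CoA, the committed step, fell within 9 h and then held. The signals on the log2 scale were 11.0, 10.77, 10.15 and 9.98 at 0, 3, 6 and 9 h, between 10.06 and 10.29 at 12 to 33 h, and between 10.14 and 10.27 at 36 to 45 h. The slope over 0 to 21 h was -0.77 ± 0.21 (limma adjusted p = 0.010). That call was lost without the 0 h array, with median scaling, with array weights and with the 0 to 21 h arrays fitted alone. The slope over 24 to 45 h was 0.09 ± 0.21 (adjusted p = 0.86), and the linear change of -0.39 ± 0.19 did not pass (adjusted p = 0.15). The slopes differed by 0.86 ± 0.29 (adjusted p = 0.039), which held in 5 of the 16 fits that left out 1 array (those without the 6, 9, 12, 15 or 21 h array). A second ACACA probe, ILMN_8132, with a mean intensity of 249.5 against 1401 for the first, ran between 6.21 and 6.93 on the log2 scale and passed no test (spline adjusted p = 0.19, linear change 0.02 ± 0.19), so the 2 probes disagree. With the mean of the 2 probes, neither the spline nor the difference from the untreated array was called.

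ACSS2 has 2 rows that also disagree. The chosen probe, ILMN_19306 (mean intensity 520), ran between 8.22 at 33 h and 8.80 at 36 h, and 7 of the 15 treated arrays were below the untreated 8.55. It passed no test (spline adjusted p = 0.32, linear change -0.19 ± 0.16, adjusted p = 0.44). The other row, ILMN_9910, had a mean intensity of 6863 but by its deposited detection p it counted as detected on 0 arrays, so it was left out of the tests. It is among the 1504 rows whose detection p has the form of an average over 2 probes, other such rows were detected, and the cause was not tested. On the log2 scale its signals were 13.15, 13.09, 12.67 and 12.42 at 0 to 9 h, 12.02, 12.18, 12.27 and 12.26 at 12 to 21 h, 12.53, 12.69, 12.73 and 12.70 at 24 to 33 h, and 12.90, 12.93, 12.99 and 12.93 at 36 to 45 h. The row thus went down 2.2-fold by 12 h and came back to 1.17-fold below 0 h at 45 h. With averaged rows tested too, a choice made after seeing the data, it fell over 0 to 21 h (-1.01 ± 0.18, limma adjusted p = 0.00069). Its later slope of 0.43 ± 0.18 did not pass (adjusted p = 0.18), and the slopes differed by 1.44 ± 0.26 (adjusted p = 0.0014). In that fit its spline passed (limma adjusted p = 8.0e-06), and its treated arrays differed from the untreated one by -0.53 ± 0.12 (adjusted p = 0.0049).

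FADS1, a desaturase of polyunsaturated fatty acids, had another course. From a log2 signal of 10.05 at 0 h it dropped to 9.20, 8.97 and 8.99 at 3, 6 and 9 h. It was back at 9.95 and 9.96 at 12 and 15 h, read 9.61, 9.53, 9.67, 9.85, 9.60 and 9.36 at 18 to 33 h, and then 8.68, 8.81, 8.69 and 8.60 at 36 to 45 h. The 3 arrays from 3 to 9 h and the 4 from 36 to 45 h, and no others, were 1.7-fold or more below 0 h. The spline passed (limma adjusted p = 0.0096), the linear change of -0.84 ± 0.32 did not (adjusted p = 0.067). It was called with array weights (-1.69, adjusted p = 4.2e-05) and without the 3 h (0.037), 6 h (0.024) or 9 h array (0.032). The early slope was 0.19 ± 0.35 (adjusted p = 0.72), the later one -1.36 ± 0.35 (adjusted p = 0.033), and they differed by -1.55 ± 0.49 (adjusted p = 0.030). The later slope was not called without the 24, 27, 30, 39, 42 or 45 h array, and the difference was not called without the 3, 27, 42 or 45 h array.

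ELOVL6, the elongase that takes palmitate toward stearate, moved like FADS1 with smaller steps. It had a log2 signal of 9.79 at 0 h, of 8.95, 8.99 and 8.59 at 3 to 9 h, of 9.27, 9.26, 8.95, 9.19, 9.21, 9.34, 9.17 and 9.18 at 12 to 33 h, and of 8.71, 8.67, 8.79 and 8.62 at 36 to 45 h. All 15 treated arrays were below 0 h and 8 were so by 1.7-fold or more. The mean of the treated arrays was lower by 0.80 ± 0.20 (limma adjusted p = 0.0099), while the linear change of -0.48 ± 0.23 did not pass (adjusted p = 0.14), though it was called with array weights (-0.79, adjusted p = 0.0024) and without the 9 h array (-0.62, adjusted p = 0.035). The spline passed (adjusted p = 0.038), but not without the 0, 6, 21, 27, 39, 42 or 45 h array. Pearson's r between ELOVL6 and FADS1 was 0.880 over the 16 arrays, 0.809 over 0 to 21 h and 0.970 over 24 to 45 h, while that between FASN and FADS1 was 0.170, -0.322 and 0.797, all as descriptions over arrays that share time.

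The rise of FADS1 and ELOVL6 after the first fall lay at 12 h, and their second fall at 36 h. ELOVL6 came back only in part, to 9.27 against 9.79 at 0 h. The root mean square step over all tested probes was 0.5 at 12 h, the largest of the course, and 0.325 at 36 h. At 3, 6 and 9 h, with root mean square steps of 0.463, 0.461 and 0.399, FADS1 moved by -0.85, -0.23 and 0.02. ELOVL6 moved by -0.84, 0.04 and -0.41 at these hours. From 9 to 12 h FADS1 went up by 0.95 and ELOVL6 by 0.68 on the log2 scale, steps exceeded in size by 5.89% and 14.6% of tested probes, while ACLY, FASN and SCD went down by 0.70, 0.76 and 0.69. From 33 to 36 h FADS1 went down by 0.68 and ELOVL6 by 0.48, exceeded by 4.39% and 12.5% of tested probes. The part of the array steps in these courses was not tested. Within the windows, the FADS1 means were 9.06 ± 0.13 (SD, n = 3 time points) at 3 to 9 h, 9.69 ± 0.21 (n = 8) at 12 to 33 h and 8.70 ± 0.09 (n = 4) at 36 to 45 h, windows chosen after the courses were seen.

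**Figure D2:**
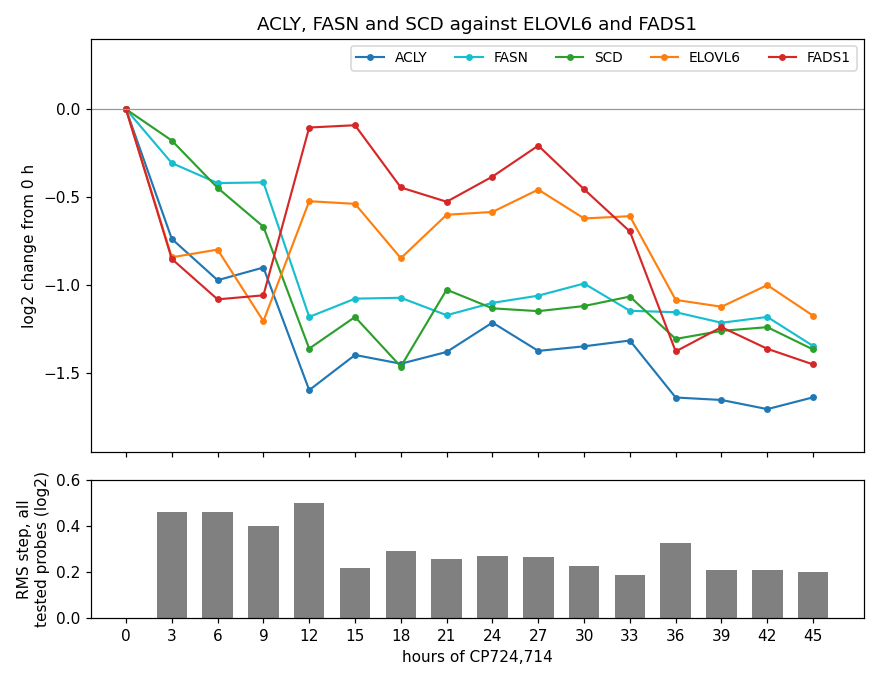
Upper panel, log2 change from the untreated array for ACLY, FASN, SCD, ELOVL6 and FADS1 against hours of CP724,714, 1 array per point. Lower panel, the root mean square step of all tested probes from the previous array, 0.5 at 12 h and 0.325 at 36 h, the hours at which FADS1 stepped up by 0.95 and down by 0.68.

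ELOVL1, an elongase of very long chains, and FADS2, the desaturase that acts before FADS1, were not among the genes that fell. ELOVL1 started from 10.51 on the log2 scale, read 10.15 at 3 h and was 10.63 to 10.96 on the 14 later arrays. Its linear change was 0.39 ± 0.14 (limma adjusted p = 0.046), a call that held in 4 of the 16 fits that left out 1 array (those without the 9, 12, 18 or 42 h array, adjusted p 0.025 to 0.15 over the 16), and no array was 1.7-fold from 0 h. The call was also lost with array weights, with no detection filter and with the array sets as a block. FADS2 was close to background. It was detected on 5 of the 16 arrays, 0 h not among them, its intensities were 165.82 to 252.2 and its log2 signals 5.66 to 6.17, and it passed no test (spline adjusted p = 0.79, linear change 0.14 ± 0.13). At the threshold of 3 arrays, FADS2 with 5 was the gene just inside, and the ACSS2 row with 0 was the one outside.

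In the fit over all 16 arrays with a line for 0 to 21 h and another for 24 to 45 h, ACLY, ACACA, FASN, ME1 and SCD fell over 0 to 21 h (background 14.9% lower). Over 24 to 45 h ME1 and FADS1 fell (2.39%) and no gene rose (2.43%), at an adjusted p or at an unadjusted p under 0.05 in limma. With the 8 later arrays fitted alone, 5 genes fell over 24 to 45 h (ACLY, FASN, ME1, ELOVL6 and FADS1), and with the 8 earlier arrays alone 4 fell over 0 to 21 h (the same without ACACA). The slopes differed for 4 genes. The later slope was the higher for ACACA, FASN and SCD (background 12%) and the lower for FADS1 (12.7%).

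**Figure D3:**
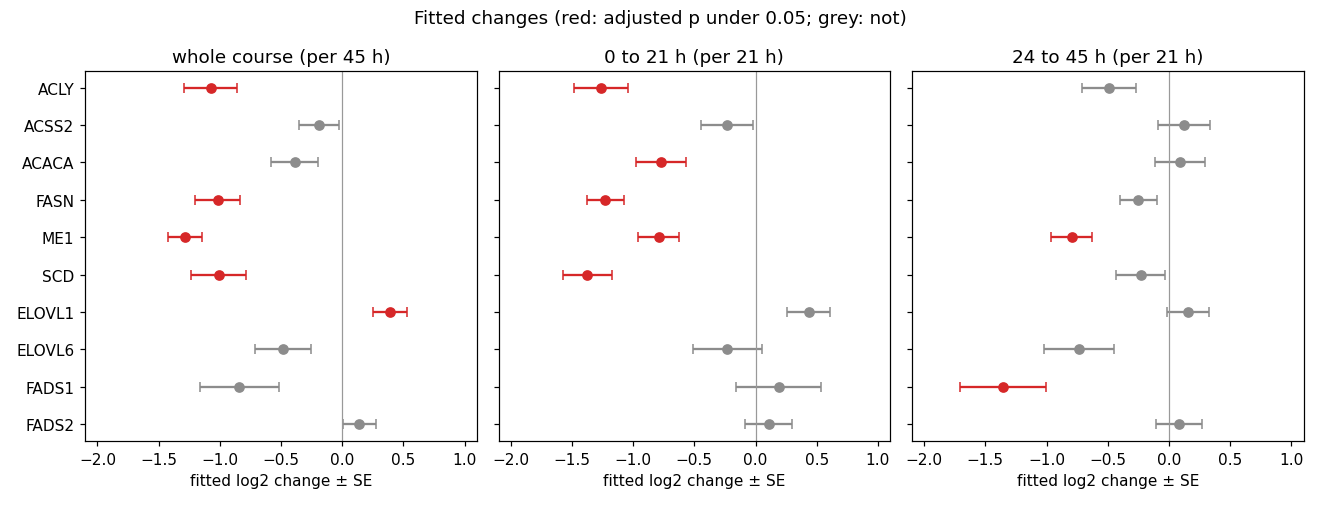
Fitted log2 change ± SE (horizontal axis) of each gene over the whole 45 h, over 0 to 21 h and over 24 to 45 h (per 21 h), red where the limma adjusted p was under 0.05 and grey where not. ACLY, ACACA, FASN, ME1 and SCD are red over 0 to 21 h, and ME1 and FADS1 over 24 to 45 h.

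The enzymes from citrate to palmitate (ACLY, ACSS2, ACACA, FASN, ME1) were set beside the elongases and desaturases (SCD, ELOVL1, ELOVL6, FADS1, FADS2). In the first group 4 of 5 passed the spline and 3 of 5 fell in the linear fit. In the second 3 of 5 passed the spline, 1 (SCD) fell and 1 (ELOVL1) rose, a rise whose call was lost in most fits that left out 1 array. The median linear change was -1.02 and -0.48, a difference of -0.53 that was not tested and that came to -0.17 when 45 h minus 0 h replaced the linear change. The second group includes FADS2, which was close to background. With only probes detected on all 16 arrays, which leaves FADS2 out, the difference was -0.355. By hour, the medians against 0 h were -0.24 and -0.36 at 3 h and -0.42 and -0.67 at 9 h, then -0.76 and -0.10 at 12 h and -0.72 and -0.09 at 15 h. By 36 h they were -1.14 and -1.08, and at 45 h -1.34 and -1.17. By these medians the groups were farthest apart at 12 and 15 h, but not by the means, which were -0.75 and -0.32 at 12 h and -0.89 and -0.32 at 33 h. SCD, in the second group by its reaction, ran with ACLY and FASN. Of the ACSS2 rows, in the first group, the chosen probe did not. The brighter ACSS2 row, left out of the main tests, fell over 0 to 21 h but came most of the way back by 45 h.

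**Figure D4:**
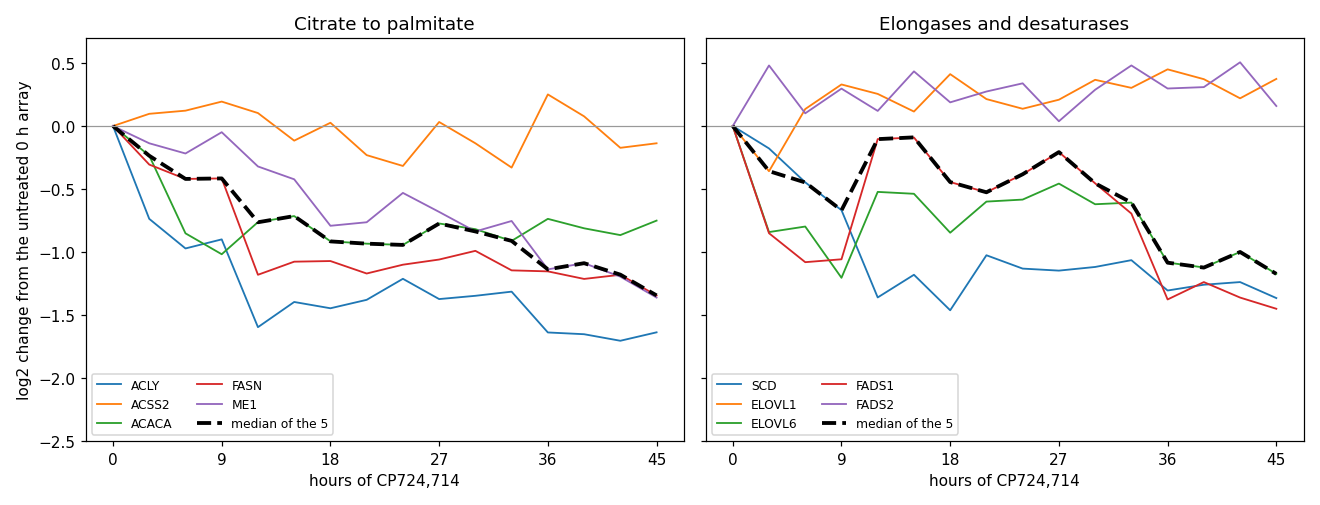
Log2 change from the untreated array (vertical axis) against hours of CP724,714, with the citrate to palmitate enzymes on the left and the elongases and desaturases on the right, 1 line per gene and the median of the 5 as a black dashed line. The medians were -0.76 and -0.10 at 12 h and -1.34 and -1.17 at 45 h.

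The SREBP genes and INSIG1 were lower after treatment as well. SREBF1 had log2 signals of 11.07, 10.25, 9.31 and 9.04 at 0, 3, 6 and 9 h and 9.35 to 9.72 at 12 to 45 h, so it was 4.10-fold below 0 h at 9 h and 2.79-fold at 45 h. Its treated arrays averaged 1.5 ± 0.25 lower than the untreated one on the log2 scale (limma adjusted p = 0.00041), and its spline passed (adjusted p = 0.00036) while its linear change did not (-0.45 ± 0.33, adjusted p = 0.35). A second SREBF1 probe was detected on 1 array and not tested. SREBF2 was 10.82, 10.91, 10.97 and 10.58 at 0 to 9 h and 10.07 to 10.41 at 12 to 45 h, with a linear change of -0.61 ± 0.18 (adjusted p = 0.019). INSIG1, itself an SREBP target, was 12.78 and 12.75 at 0 and 3 h and 10.64 at 6 h on its brighter probe, and 10.34 to 11.01 from 9 to 45 h. Its linear change was -1.39 ± 0.44 (adjusted p = 0.026), and its second probe, ILMN_12839, declined from 9.27 at 0 h to 6.82 at 45 h (-2.28 ± 0.22, adjusted p = 1.2e-06).

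**Figure D5:**
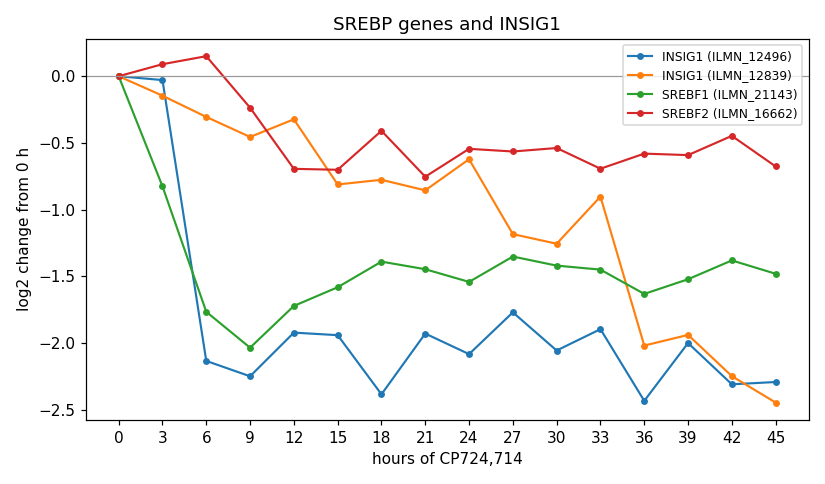
Log2 change from the untreated array for the tested probes of INSIG1, SREBF1 and SREBF2 against hours of CP724,714, 1 array per point. SREBF1 was lowest at 9 h, the brighter INSIG1 probe stepped down between 3 and 6 h, and its second probe reached its lowest value at 45 h.

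Among 66 tested genes of 6 other lists of the pathway, 29 passed the spline, 43.9% against 42.3% of all tested probes. In the linear fit 6 of the 66 fell and 9 rose, near the shares of all tested probes (11.3% lower, 13.1% higher). The median linear change was 0.04. For the slope over 0 to 21 h, 12 fell (background 14.9%) and 10 rose. Against the untreated array 12 were lower (background 9.35%) and 3 higher. Counts of genes that fell or rose in a list below are of the linear fit unless stated, with the same background. The list of SREBP and LXR control had 12 tested genes, of which 6 passed the spline, 2 fell (INSIG1 and SREBF2) and 3 rose. NR1H3, the sterol receptor LXR alpha, rose by 1.24 ± 0.30 (limma adjusted p = 0.0047).

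In the list of citrate and NADPH supply 5 of 12 tested genes passed the spline and 3 fell, among them IDH1 and PGD, both NADPH-forming dehydrogenases. IDH1, the cytosolic isocitrate dehydrogenase, had a linear change of -1.35 ± 0.24 (limma adjusted p = 0.00047), and PGD of the pentose phosphate pathway -0.94 ± 0.29 (adjusted p = 0.022). None of the 12 rose in the linear fit, at an adjusted or an unadjusted p under 0.05 in limma. For the slope over 0 to 21 h, 3 fell and 1 rose.

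In the other 4 lists 1 gene fell and 6 rose in the linear fit, and at an unadjusted p under 0.05 the limma counts of genes that were lower were 0, 0, 1 and 1 in the order given here. Of 8 tested genes that control acetyl-CoA carboxylase, 2 passed the spline and none fell in the linear fit. Over 0 to 21 h, 2 fell and none rose, and 1 was higher than the untreated array. PRKAA1, a catalytic subunit of the AMP-activated kinase, rose by 0.51 ± 0.17 in the linear fit (limma adjusted p = 0.033). PRKAG2, a subunit of the same kinase, had a linear change of 0.35 ± 0.13 (adjusted p = 0.063). Of 12 other elongation and desaturation genes, 6 passed the spline and none fell in the linear fit. Over 0 to 21 h, 2 of them fell and 4 rose, and 1 was lower than the untreated array. HACD2 (listed as PTPLB), a dehydratase of the elongation cycle, rose by 0.77 ± 0.13 in the linear fit (adjusted p = 0.00023). CYB5A, the electron donor of desaturases, had 0.38 ± 0.20 (adjusted p = 0.18). Of 6 mitochondrial fatty acid synthesis genes, 2 passed the spline, NDUFAB1, the acyl carrier protein, fell by 0.47 on the log2 scale (SE 0.10, adjusted p = 0.0030) and HSD17B8, a reductase subunit, had 0.48 ± 0.28 (adjusted p = 0.23). Of 16 genes of fatty acid activation and esterification, 8 passed the spline, and in the linear fit none fell and 4 rose. Over 0 to 21 h, 3 of them fell and 2 rose. Against the untreated array 3 were lower and 1 higher. ACSL5, an acyl-CoA synthetase, rose by 1.13 ± 0.32 (adjusted p = 0.015), and FABP5, a fatty acid binding protein, had -1.07 ± 0.48 (adjusted p = 0.12).

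The genes most like 4 of the enzymes were found by Pearson's r over the 16 arrays among 12310 tested probes of other genes, as a description. For ACLY they were FKSG24 (0.970), RPP40 of the RNase P complex (0.950) and MMAB of cobalamin metabolism (0.934). For FASN they were MARS, the methionyl-tRNA synthetase (0.978), CCNA1, a cyclin (0.964), and PCK2, the mitochondrial carboxykinase (0.959), and for SCD MARS (0.964), NSDHL (0.963) and FDFT1 (0.959), of which NSDHL and FDFT1 are enzymes of sterol synthesis. For ELOVL6 they were C3orf26 (0.958), RANBP1 (0.942) and CNTNAP2 (0.940). Over the 24 to 45 h arrays alone, r fell to 0.465 for FASN with CCNA1 and to 0.417 for SCD with NSDHL but was 0.874 for FASN with MARS, and it was 0.922 or more for the 3 genes like ELOVL6.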

How the data were processed

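Total RNA of 16 parallel MCF10HER2 cultures was measured on Illumina Ref-8 v2 arrays for human genes, 1 array per time point. The authors deposited the probe intensity of each array before normalization and a detection p-value beside it. Per the methods of the study, arrays were compared after quantile normalization. Groups are the time points of the labels. In 1504 of the 20589 rows the deposited detection p-value lies off the grid of single probes and 100% of these values lie on that of a sum of 2, as for an average over 2 probes.

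Intensities were background-corrected by normexp (limma 3.58.1, R 4.3.3) with the mean and SD of the negative controls inferred from the single-probe rows, since the averaged rows inflate that SD, and an offset of 16, which draws fold changes of weak probes toward 1. They were then quantile normalized and log2 transformed. The tested probes had a detection p below 0.05 for at least 3 arrays. Using limma with a mean-variance trend, the fits were a time spline with 4 degrees of freedom, a line, the treated arrays against 0 h with a spline of 3 degrees of freedom among the treated, and separate lines for 0 to 21 h and 24 to 45 h. P-values were adjusted over all 12321 probes with 0.05 as the threshold. The fits were tested on simulated data. The enzymes, lists and tests were chosen with earlier results of these data known. Named are the 10 enzymes with each tested probe, SREBF1, SREBF2, INSIG1, the 2 genes of each list with the largest linear change, the 3 genes most like ACLY, FASN, SCD and ELOVL6, and ERBB2. Older symbols were matched through RefSeq synonyms. ACSF3 was not matched. Alternatives covered background, offset, scaling, detection filter, probe choice, array weights, array sets, spline and single arrays. The values of 1 gene of the citrate and NADPH supply list are not reported here.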

Additional observations from a re-analysis of the deposited data

Results flagged for a closer look

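The slope over 24 to 45 h and the slope over 0 to 21 h, both per 21 h on the log2 scale, differed for 4 of the 10 enzymes by limma's test of the difference itself. For FASN the difference was 0.98 ± 0.21 (SE; early -1.23, later -0.25, adjusted p = 0.0044), and for SCD 1.15 ± 0.28 (early -1.38, later -0.23, adjusted p = 0.0082). For ACACA it was 0.86 ± 0.29 (early -0.77, later 0.09, adjusted p = 0.039). For FADS1 it had the opposite sign, -1.55 ± 0.49 (early 0.19, later -1.36, adjusted p = 0.030). The arrays of lower background are those of 0 to 21 h and the arrays of higher background those of 24 to 45 h, so the time and the array set cannot be told apart in these differences.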

How the results depend on the processing

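Of the linear calls, those on ACLY, FASN, ME1 and SCD held with each array left out in turn and with the 2 array sets as a block. With array weights SCD lost its call (-0.321, adjusted p = 0.137), ACLY came to -0.535 and FASN to -0.428, both called, and ELOVL6 and FADS1 were called. Over all alternatives 0 to 7 genes had a linear trend. With the 4 blocks of 4 time points as a block, a choice made after seeing the data, 0 of 10 genes had a linear trend against 5 (adjusted p 0.567 to 0.825; 4 genes, ACACA, ME1, ELOVL6 and FADS1, were under 0.05 unadjusted), and 1 of 12321 probes was called. The changes there were -1.0 for ACLY, -1.32 for ME1, -0.726 for FASN and -0.555 for SCD. The count of 2 genes with a slope from 24 to 45 h came to 1 with median scaling and 1 with negative controls inferred from all rows (added later), 4 with array weights and 5 with the 24 to 45 h arrays fitted alone, and to 0 to 3 with 1 array left out. The count of 4 genes whose slopes differ came to 2 with median scaling and 2 to 5 with 1 array left out. The difference between the step groups, -0.53, was -0.171 by 45 h minus 0 h and -0.646 to -0.349 with 1 array left out. The linear change of ACSS2 turned to 0.256 with no detection filter and 0.256 with averaged rows detected by signal, both through its brighter row. Time dependence was called for 6 to 8 genes over its alternatives and for 5 (without FASN and ME1) when the 4 blocks of time points were added to the spline, the early slope for 4 to 6 and the 1.7-fold threshold for 5 to 8. Leaving out the 0 h array gave no value for the tests against it. No paired analysis was possible because no group had more than 1 array. A probe near background, as FADS2 is, limits what fall could be seen.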
